A study of Penicillium citrinum with 6 samples.

Results

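The amino acid and peptide transporter genes of the mould *Penicillium citrinum* were followed in mycelium on plates and on tobacco leaves. A gene was taken as a member when its product name in the deposited tables contained amino acid permease, amino acid transporter, peptide transporter, oligopeptide transporter or proline permease, with or without a hyphen in amino acid. Names with mitochondrial were to be dropped. This gave 38 of 9385 genes. The data are RNA sequencing of wild-type mycelium, with CY-H4 as the submitters' description, in 6 libraries that form 3 groups of 2. CK2D is mycelium of 2 days from Czapek-Dox plates, whose nitrogen source is nitrate. TL2D and TL3D come from tobacco leaves, with mycelium taken 2 and 3 days after conidia were put on them, all at 25 °C. The titles do not spell out these codes, which were matched to the growth description by sampling day. No group carries a genetic change. No plate was sampled at day 3, so in TL3D against CK2D the substrate and the age cannot be told apart. Whether the 2 libraries of a group came from different cultures is not in the labels. The p-values therefore reflect only how far these libraries differ, which may be technical.

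Fungi take up nitrogen from their surroundings as ammonium, nitrate, free amino acids and short peptides. Amino acid permeases in the plasma membrane carry free amino acids in together with protons, and the general permeases among them accept many amino acids. Peptide transporters of the PTR2 type carry di- and tripeptides, and oligopeptide transporters carry longer ones. A further set sits in the membrane of the vacuole, the compartment in which fungi store amino acids. In yeasts and moulds many of the uptake genes are turned down while ammonium or glutamine is plentiful. The product names come from similarity to proteins of yeasts, plants and animals, and no transport was measured here.

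Levels are FPKM, which corrects for gene length and for library size, so levels of different genes can be set side by side. Mean levels are means over the 6 libraries. Folds are ratios of the groups' mean FPKM (n = 2 libraries per group). Log2 changes are fitted on log2(FPKM + 1) and given ± SE. Rose, fell and called mean that limma gave an adjusted p under 0.05. Between 7906 and 8217 genes per library reached 1 FPKM. Read depth is unknown, and intervals for counting error are not given. The TL2D replicates stood apart from each other in the transporter genes. Of 35 members at 1 FPKM or more in both TL2D replicates, 30 were higher in replicate 1, with a median ratio of 1.42 and ratios from 0.529 to 2.58. In 14 of the 35 the ratio reached 1.5, against 10.6% of all genes at that level. Over all these genes the median TL2D ratio was 1.04. In the CK2D and TL3D replicates the members' median ratios were 0.915 and 0.984, and in neither group did a member reach 1.5, although 1 lay below the inverse of that limit in CK2D. Member counts and the called changes of members that use TL2D are therefore also given without each of its replicates. In bulk RNA, fewer cells of a kind and less RNA per cell cannot be told apart.

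**Figure D1:**
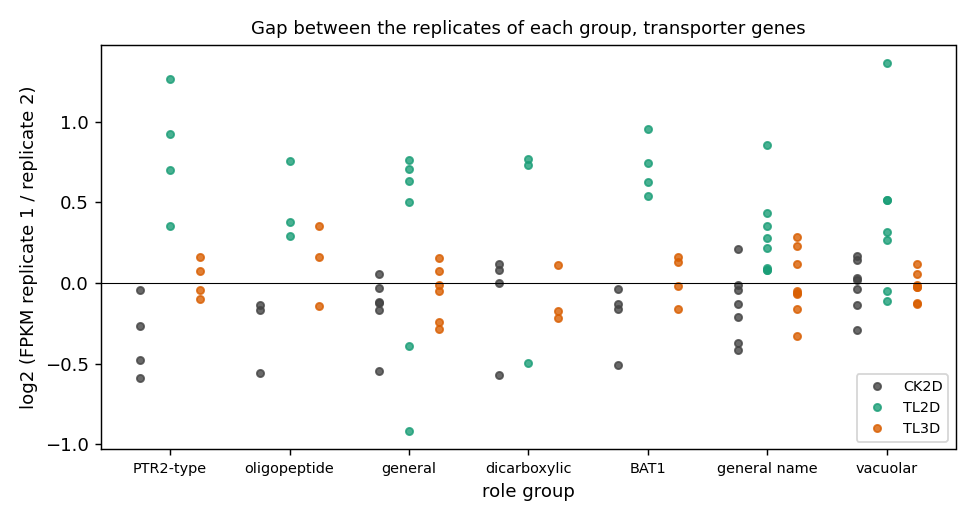
Log2 ratio of FPKM in replicate 1 to replicate 2 (vertical axis) for each transporter gene at 1 FPKM or more in both replicates, by role group (horizontal axis) and sample group (colour). In TL2D 30 of 35 genes lie above 0, with a median ratio of 1.42, while the median ratios are 0.915 in CK2D and 0.984 in TL3D.

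The 38 genes together held between 0.236% and 0.361% of the summed FPKM of a library, both extremes being TL2D replicates. A few genes carried most of it. The general amino acid permease GAP2 gene (PCI_6375), the PTR2 gene PCI_4029 and the ptr2 gene PCI_1335 held 51.1% of the members' mean FPKM, and the top 10 genes held 76.2%. In the order of mean level over the 6 libraries these 3 stood at 360 FPKM, 314 and 248. They were followed by the ptr2 genes PCI_3637 (102) and PCI_7146 (94.2). The levels of PCI_6375 and PCI_4029, neighbours in that order, overlapped between their libraries, as did those of PCI_3637 and PCI_7146. At the other end, PCI_8950, named only amino acid transporter, and the AGP2-named PCI_9340 stayed at or below 0.26 FPKM in each library and were not tested. PCI_8950 was listed at 0 in CK2D replicate 1 and TL2D replicate 2.

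**Figure D2:**
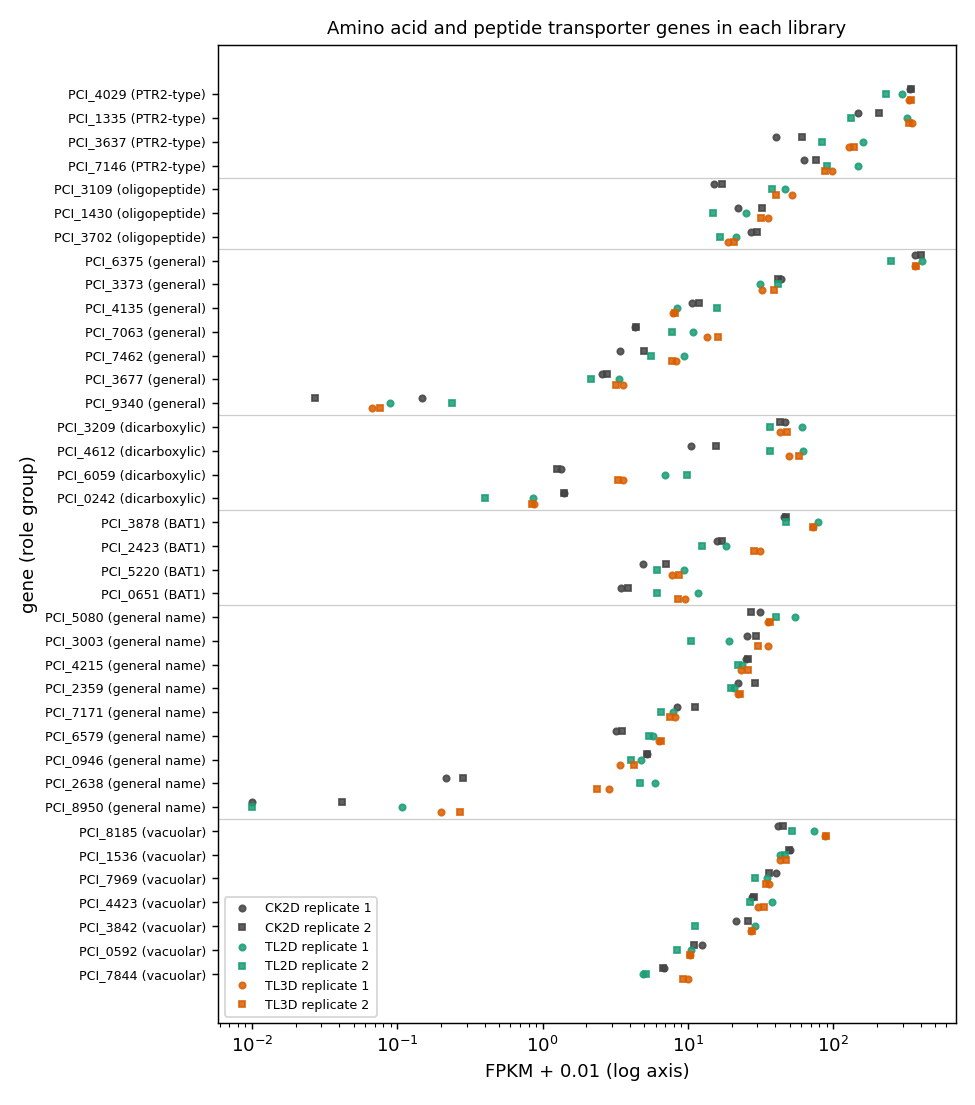
FPKM + 0.01 (log axis) of the 38 transporter genes (rows, sorted within role groups by mean level) in the 6 libraries, with colour for the group and circles and squares for replicates 1 and 2. The most abundant gene, PCI_6375, has a mean of 360 FPKM over the 6 libraries, and PCI_2638 goes from 0.206 and 0.271 FPKM in CK2D to 5.92 and 4.64 in TL2D.

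The comparison of leaf mycelium with plate mycelium asks which of these genes differ with the substrate. At day 2, of 36 tested members 9 were higher on leaves, namely the dicarboxylic amino acid permeases PCI_6059 and PCI_4612, the oligopeptide transporter PCI_3109, the peptide transporter PCI_3637 and 5 permeases. The putative oligopeptide transporter PCI_3702 was lower. The most abundant members, GAP2 and the PTR2 gene PCI_4029, did not pass. In either direction 10 of 36 were called, against 54.2% of all tested genes. The share of members called higher, 25.0%, lay near the 24.8% of all 8286 tested genes, and the share called lower, 2.78%, lay below the 29.4% of all genes. The members' median log2 change was 0.03, against −0.10 over all tested genes. Unadjusted, 14 of the 36 had p under 0.05. In 12 members both leaf libraries lay above both plate libraries (36.6% of all tested genes did so), and in 13 both lay below (45.7% of all). The counts depend on the libraries, as do those of all tested genes. Over all of these, higher calls became a little more frequent without either TL2D replicate, and lower calls did so without TL2D replicate 1 only. Calls in both directions became much rarer without either CK2D replicate. Without TL2D replicate 1, 10 members rose and 9 fell, and without TL2D replicate 2, 16 rose and 3 fell. Without CK2D replicate 1 or CK2D replicate 2, 3 rose and 0 fell, when the spread rests on the TL2D pair alone. In those 2 fits all tested genes gave 593 and 621 higher calls, against 2054 with all 4 libraries. The 3 genes that kept their call in each of these 4 fits were PCI_2638, PCI_3109 and PCI_6059, of which PCI_2638 was tested only because it is high on leaves. The authors' deposited FDR was under 0.05 for 14 members, the 10 called here included.

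More members were called at day 3 than at day 2 against plates, in a fit without the wide TL2D pair. In either direction 18 of 36 tested members were called, against 58.3% of all tested genes. Of the 36, 16 rose (44.4%, against 28.1% of all 8356 tested genes called higher) and 2 fell (5.56%, against 30.2% called lower). The median log2 change of the members was 0.27, against −0.04 over all tested genes. In 21 members both leaf libraries lay above both plate libraries (37.7% of all tested genes did so), and in 9 both lay below (43.3% of all). This comparison does not use TL2D, and 14 of its 18 calls held without any single library. The exceptions were PCI_4135, PCI_5080, PCI_7146 and PCI_7844. PCI_2638 is counted among the 16 that rose and the 14 that held. It was tested only because it is high on leaves, so its groups had to differ. With all 6 libraries in one fit, TL2D included, 12 rose and 1 fell. The calls of PCI_1335, PCI_3878, PCI_4135, PCI_5080 and PCI_7146 were lost. In that fit 11 rose and 5 fell at day 2, so the larger count at day 3 depends on the fit. In the separate fits all 9 members higher at day 2 were also higher at day 3, and PCI_3702 was lower in both. The CK2D libraries are, however, shared by the 2 comparisons. Another 7 members rose at day 3 against plates alone. For 6 of them the direct comparison of TL3D with TL2D found no call, so a difference between the days was not shown.

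**Figure D3:**
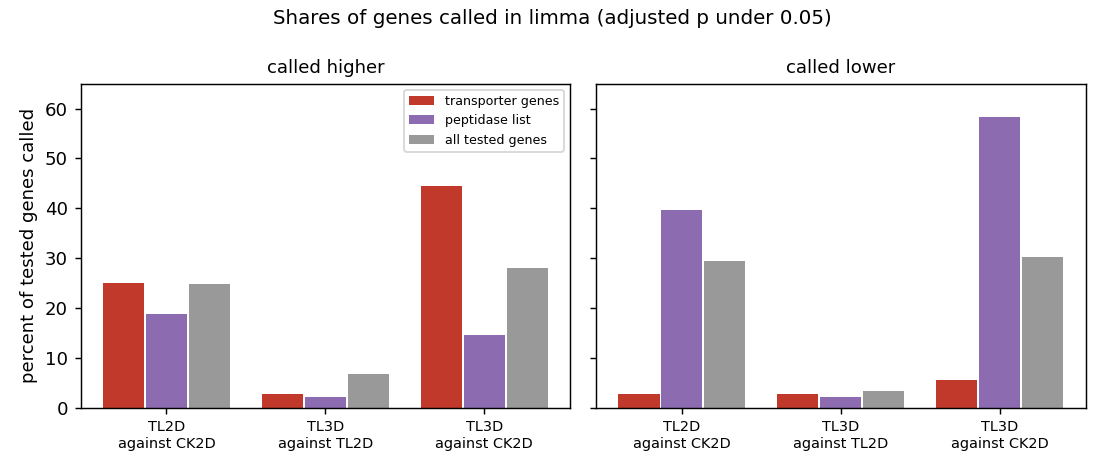
Percent of tested genes called higher (left) and lower (right) in limma at an adjusted p under 0.05, for the transporter genes, a list of peptidases and all tested genes, in the 3 comparisons (horizontal axis). Of the transporter genes 44.4% were higher and 5.56% lower in TL3D against CK2D, while 14.6% of the peptidase list were higher and 58.3% lower.

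Between day 2 and day 3 on leaves, 1 of 35 tested members rose and 1 fell. All 8222 tested genes had 10.1% called in either direction, 6.77% higher and 3.3% lower. In 10 members both TL3D libraries lay above both TL2D libraries (29.5% of all tested genes did so), and in 4 both lay below (33.9% of all). The vacuolar transporter PCI_7844 rose and the dicarboxylic permease PCI_6059 fell. With TL2D replicate 1 left out, 15 members rose and 3 fell, and with TL2D replicate 2 left out 4 rose and 5 fell. Without TL3D replicate 1 or TL3D replicate 2, none passed in either direction in limma, nor did any of all tested genes. Unadjusted, 9 members had p under 0.05. By the authors' deposited FDR 5 rose and 2 fell. After upper-quartile scaling 2 rose and 1 fell. Over all tested genes, calls in both directions also became more frequent without either TL2D replicate. With this spread the day 2 to day 3 values are mostly a description.

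**Figure D4:**
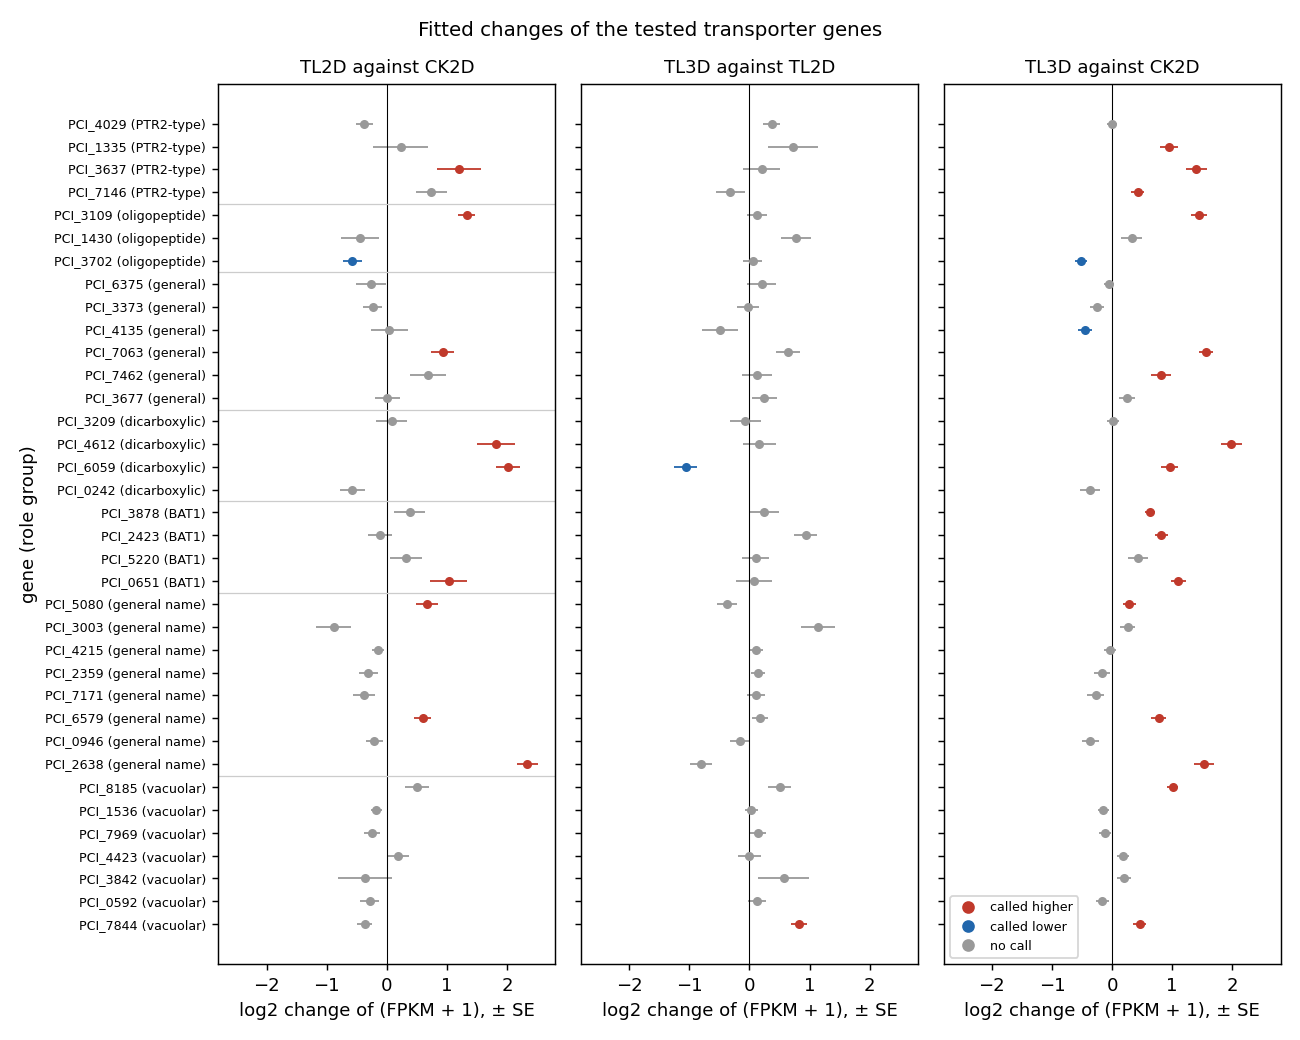
Fitted log2 change of FPKM + 1 with its SE (horizontal axis) for the 36 tested transporter genes (rows, by role group) in the 3 comparisons, coloured by the call at an adjusted p under 0.05. In TL3D against CK2D 16 genes are called higher and 2 lower, and in TL3D against TL2D 1 each.

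The 4 PTR2-type genes, whose products take up di- and tripeptides, held between 38.2% and 44.5% of the members' FPKM in each library. The ptr2 gene PCI_3637 had 40.6 and 60.9 FPKM on plates, 159 and 83.7 in TL2D, and 128 and 138 in TL3D. All 4 leaf libraries lay above both plate libraries. It rose 2.39-fold at day 2 (log2 1.20 ± 0.37, adjusted p = 0.0488, and 0.74 and 1.66 without TL2D replicates 1 and 2) and 2.62-fold at day 3 (1.40 ± 0.17, adjusted p = 0.000447). The day 2 call was lost without either CK2D replicate (adjusted p up to 0.218), with a pseudocount of 0.1, and with no filter or one at 5 FPKM.

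PCI_1335, the third most abundant member, had 149 and 207 FPKM on plates and 349 and 332 in TL3D, with 319 and 132 in TL2D. Only its TL2D replicates lay on both sides of the plate values. It rose 1.91-fold at day 3 against plates (log2 0.95 ± 0.15, adjusted p = 0.00134, a call lost with all 6 libraries in one fit), and had log2 0.23 ± 0.46 at day 2 (adjusted p = 0.692). For that gene the day 2 value was −0.40 without TL2D replicate 1 and 0.86 without TL2D replicate 2, so its direction at day 2 rests on 1 library.

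PCI_7146 had 63.2 and 75.8 FPKM on plates, 148 and 91.1 in TL2D, and 98.5 and 88.2 in TL3D. It was above the plates in each leaf library. The rise passed at day 3 (1.34-fold, log2 0.42 ± 0.11, adjusted p = 0.0152) but not at day 2 (0.74 ± 0.26, adjusted p = 0.0682), and the day 3 call was lost without CK2D replicate 1 or TL3D replicate 1 (adjusted p up to 0.0999). The most abundant of the set, PCI_4029, had 334 and 344 FPKM on plates and 334 and 344 in TL3D, with 296 and 232 in TL2D. Both TL2D libraries lay below the other 4, but the change from plates, −0.37 ± 0.14, had an adjusted p of 0.0855 in limma. That change was −0.55 without TL2D replicate 1 and −0.20 without TL2D replicate 2. Within the set the leaf to plate ratio at day 3 therefore ran from 0.999 in PCI_4029 to 2.62 in PCI_3637.

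The 3 oligopeptide transporter genes went different ways. PCI_3109, named oligopeptide transporter 5, had 15.2 and 17.1 FPKM on plates, 46.3 and 37.8 in TL2D, and 51.6 and 40.5 in TL3D. The leaf libraries formed a separate, higher range on both days. It rose 2.61-fold at day 2 (log2 1.32 ± 0.14, adjusted p = 0.00374, and 1.18 and 1.47 without TL2D replicates 1 and 2) and 2.86-fold at day 3 (1.45 ± 0.13, adjusted p = 0.000106). PCI_3702, named after the *Saccharomyces cerevisiae* gene YGL114W of the same family, had 27.3 and 29.9 FPKM on plates, 21.5 and 16.6 in TL2D, and 18.7 and 20.6 in TL3D. It was below the plates in each leaf library. It fell by 0.57 on the log2 scale at day 2 (SE 0.16, adjusted p = 0.0368, lost without either CK2D replicate, and −0.75 and −0.39 without TL2D replicates 1 and 2) and by 0.52 at day 3 (SE 0.10, adjusted p = 0.00414). The third gene, PCI_1430 (oligopeptide transporter 9), had between 14.9 and 35.7 FPKM over the 6 libraries and passed in no comparison.

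General amino acid permeases, which carry a wide range of amino acids, comprised the GAP2 gene, 5 genes named AGP2 and 1 named AGP3. The GAP2 gene PCI_6375, the most abundant of all members, had 367 and 399.7 FPKM on plates, 407 and 249.9 in TL2D, and 366 and 369 in TL3D. Its groups overlapped, and its changes were −0.26 ± 0.25 at day 2 (adjusted p = 0.412) and −0.06 ± 0.08 at day 3 (adjusted p = 0.566). The day 2 change was −0.61 without TL2D replicate 1 and 0.09 without TL2D replicate 2, so its direction rests on 1 library. The AGP2-named PCI_7063 changed most of this set. It had 4.31 and 4.40 FPKM on plates, 10.9 and 7.70 in TL2D, and 13.6 and 16.1 in TL3D, the 3 groups without overlap. The gene rose 2.13-fold at day 2 (log2 0.93 ± 0.19, adjusted p = 0.0174, lost without either CK2D replicate, and 0.70 and 1.15 without TL2D replicates 1 and 2) and 3.41-fold at day 3 (1.56 ± 0.12, adjusted p = 4.95e-05). From day 2 to day 3 it had log2 0.64 ± 0.20 (adjusted p = 0.114). The AGP3 gene PCI_7462 rose 1.90-fold at day 3 (0.81 ± 0.16, adjusted p = 0.00465). Another AGP2-named gene, PCI_4135, fell by 0.45 on the log2 scale at day 3 against plates (SE 0.11, adjusted p = 0.012), a call lost without CK2D replicate 2 or TL3D replicate 1 (adjusted p up to 0.0673). Its TL2D replicates, 8.41 and 15.9 FPKM, lay on both sides of the plates at 10.6 and 11.9. The AGP2-named PCI_3373 and PCI_3677, at means of 38.3 and 2.92 FPKM, passed in no comparison.

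The 4 dicarboxylic amino acid permeases, named for carriers that in *S. cerevisiae* take up glutamate and aspartate, held the members' largest fitted log2 rise at day 3. PCI_4612 had 10.6 and 15.7 FPKM on plates, 62.3 and 36.6 in TL2D, and 49.9 and 57.9 in TL3D. Each leaf library was above each plate library. It rose 3.77-fold at day 2 (log2 1.81 ± 0.32, adjusted p = 0.0113, and 1.44 and 2.19 without TL2D replicates 1 and 2) and 4.11-fold at day 3 (1.98 ± 0.17, adjusted p = 8.41e-05). The day 2 call had an adjusted p of up to 0.079 without a CK2D replicate.

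PCI_6059 was the member called in all 3 comparisons. It had 1.32 and 1.25 FPKM on plates, 6.94 and 9.79 in TL2D, and 3.57 and 3.30 in TL3D. Unlike most members it was higher in TL2D replicate 2 than in replicate 1, and the 3 groups did not overlap. The gene rose 6.52-fold at day 2 (log2 2.02 ± 0.20, adjusted p = 0.00301, and 2.24 and 1.80 without TL2D replicates 1 and 2) and stood 2.68-fold above plates at day 3 (0.96 ± 0.14, adjusted p = 0.00112). From day 2 to day 3 it fell by 1.06 on the log2 scale (SE 0.20, adjusted p = 0.0402, and −1.28 and −0.84 without TL2D replicates 1 and 2), a call lost without TL3D replicate 1 or TL3D replicate 2 (adjusted p up to 0.333). The more abundant PCI_3209, at a mean of 46.4 FPKM, had log2 0.08 ± 0.26 at day 2 and 0.01 ± 0.10 at day 3 (adjusted p = 0.807 and 0.917). PCI_0242 had 1.39 FPKM in both plate libraries and between 0.394 and 0.869 on leaves. It entered the tests against plates only through the plate libraries and passed in neither (adjusted p = 0.0755 and 0.083).

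BAT1-named permeases, after an *Arabidopsis* carrier that moves amino acids in both directions, numbered 4. In all 4 both TL3D libraries lay above both plate libraries, and 3 of them rose at day 3. PCI_0651 had 3.47 and 3.88 FPKM on plates, 11.8 and 6.09 in TL2D, and 9.52 and 8.51 in TL3D, with no overlap between leaves and plates. It rose 2.43-fold at day 2 (log2 1.03 ± 0.31, adjusted p = 0.0471, and 0.60 and 1.45 without TL2D replicates 1 and 2) and 2.45-fold at day 3 (1.10 ± 0.13, adjusted p = 0.000314). Its day 2 call was lost without either CK2D replicate, and with no filter or one at 5 FPKM. PCI_2423 had 15.7 and 17.2 FPKM on plates, 18.2 and 12.6 in TL2D, and 31.2 and 28.5 in TL3D. The day 3 libraries alone stood clear of the plates. That gene was 1.81-fold above plates at day 3 (0.82 ± 0.10, adjusted p = 0.000466), and its rise from TL2D to TL3D, 0.93 ± 0.20, just missed the threshold (adjusted p = 0.0526). PCI_3878, the most abundant at a mean of 60.6 FPKM, rose 1.56-fold at day 3 (0.63 ± 0.08, adjusted p = 0.000622, lost with all 6 libraries in one fit), and PCI_5220 had log2 0.43 ± 0.16 (adjusted p = 0.0573).

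Among 9 members with only a general name, PCI_2638, named as a transmembrane amino acid transporter, had the largest fitted rise of all members at day 2. It had 0.206 and 0.271 FPKM on plates, 5.92 and 4.64 in TL2D, and 2.85 and 2.34 in TL3D. It was near the floor on plates and entered the test only through the leaf libraries, so its groups had to differ. Its ratios of means were 22.1 at day 2 (log2 2.34 ± 0.18, adjusted p = 0.00172, and 2.19 and 2.48 without TL2D replicates 1 and 2) and 10.9 at day 3 (1.53 ± 0.17, adjusted p = 0.000249). The fitted changes are much smaller than these ratios because of the added 1 FPKM. From day 2 to day 3 it had −0.80 ± 0.18 (adjusted p = 0.0599).

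PCI_6579, an amino acid permease, had 3.19 and 3.49 FPKM on plates, 5.70 and 5.39 in TL2D, and 6.26 and 6.56 in TL3D. Its replicates were close and its 3 groups did not overlap. It rose 1.66-fold at day 2 (log2 0.59 ± 0.14, adjusted p = 0.0222, lost without either CK2D replicate, and 0.56 and 0.63 without TL2D replicates 1 and 2) and 1.92-fold at day 3 (0.77 ± 0.13, adjusted p = 0.0016). PCI_5080 had 31.4 and 27.2 FPKM on plates, 54.5 and 40.3 in TL2D, and 35.3 and 36.5 in TL3D. TL2D was highest and TL3D only a little above the plates. That gene rose 1.62-fold at day 2 (0.66 ± 0.18, adjusted p = 0.0353, lost without either CK2D replicate, and 0.45 and 0.88 without TL2D replicates 1 and 2) and 1.22-fold at day 3 (0.29 ± 0.10, adjusted p = 0.0463). The day 3 call was lost without CK2D replicate 2, TL3D replicate 1 or TL3D replicate 2 (adjusted p up to 0.266), and with no filter on low values.

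A second gene named as a transmembrane amino acid transporter, PCI_3003, was the reverse of PCI_2638 in TL2D. It had 25.3 and 29.3 FPKM on plates, 19.2 and 10.6 in TL2D, and 35.4 and 30.2 in TL3D. Both TL2D libraries were the lowest of the 6, and the 3 groups did not overlap. Its change was −0.89 ± 0.29 at day 2 (adjusted p = 0.0578). From day 2 to day 3 it was 1.14 ± 0.29 (adjusted p = 0.0721). Neither was past the limma threshold with all libraries of its comparison. The day 2 change was −1.29 and −0.49 without TL2D replicates 1 and 2, and −0.99 and −0.79 without CK2D replicates 1 and 2. The change between the days was 1.54 and 0.74 without TL2D replicates 1 and 2, and 1.03 and 1.25 without TL3D replicates 1 and 2. The b(0,+)-type transporter PCI_4215, named after a mammalian carrier of cystine and basic amino acids, and the permeases PCI_2359, PCI_7171 and PCI_0946 passed in no comparison, with day 3 changes against plates from −0.37 (PCI_0946) to −0.04 (PCI_4215).

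The 7 vacuolar members held between 11.1% and 13.0% of the members' FPKM in each library. At day 2 none of the 7 passed in limma, with 1 at an unadjusted p under 0.05, and 2 rose at day 3 against plates. Both are named after the *S. cerevisiae* vacuolar transporter YPQ1, which is known for basic amino acids. PCI_8185 had 41.3 and 45.4 FPKM on plates, 73.9 and 51.7 in TL2D, and 87.2 and 88.6 in TL3D. The 3 groups did not overlap, and TL3D was highest. It rose 2.03-fold at day 3 (log2 1.00 ± 0.09, adjusted p = 8.95e-05), and had 0.50 ± 0.19 at day 2 (adjusted p = 0.0852). PCI_7844 had 6.79 and 6.70 FPKM on plates, 4.91 and 5.09 in TL2D, and 10.05 and 9.26 in TL3D. It was lowest in TL2D and highest in TL3D. It was the one member called higher at day 3 than at day 2 on leaves, 1.93-fold (0.83 ± 0.13, adjusted p = 0.0314, up to 0.338 without TL3D replicate 1 or TL3D replicate 2, and 0.81 and 0.85 on the log2 scale without TL2D replicates 1 and 2). Against plates at day 3 it rose 1.43-fold (0.46 ± 0.11, adjusted p = 0.0103, and 0.0661 without TL3D replicate 1). The third YPQ1-named gene, PCI_3842, had the widest TL2D gap of the tested members, 28.7 against 11.2 FPKM, and passed in no comparison. Vacuolar amino acid transporters 1, 2, 3 and 5 (PCI_4423, PCI_0592, PCI_1536 and PCI_7969) passed in none either, with log2 changes from −0.16 to 0.18 at day 3 against plates.

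The name rule leaves out carriers of the same kind that the tables name otherwise. A further 38 such genes, the list chosen after their names were seen, comprise 18 N amino acid transport system genes, 8 proline-specific permeases, 6 amino acid/polyamine transporters, 4 vacuolar uptake transporters named fnx2 and 2 named isp4. Of 32 tested, 10 rose and 5 fell at day 2 and 12 rose and 6 fell at day 3 against plates. These are 31.3% higher and 15.6% lower at day 2, against 24.8% and 29.4% of all tested genes, and 37.5% and 18.8% at day 3, against 28.1% and 30.2%. The day 2 counts were 6 and 0 without CK2D replicate 1, 6 and 1 without CK2D replicate 2, and 11 and 9 without TL2D replicate 1. With the 38 members that makes 28 of 68 tested higher and 8 lower at day 3 (41.2% and 11.8%, beside the same 28.1% and 30.2%). Some amino acid permeases are not in this sum and stand in the list of other permeases for nitrogen compounds below. Among them, 4 CAN1-named genes gave 3 higher and 1 lower at day 3, and 2 methionine permeases were both lower. The N amino acid transport system gene PCI_8661, named after a *Neurospora* carrier of neutral amino acids, had 10.4 and 10.8 FPKM on plates, 59.1 and 74.0 in TL2D, and 61.2 and 59.9 in TL3D. Leaf and plate libraries were far apart, and its TL2D replicates did not share the order of most members. It rose 6.28-fold at day 2 (log2 2.53 ± 0.14, adjusted p = 0.001) and 5.72-fold at day 3 (2.41 ± 0.09, adjusted p = 1.3e-06). PCI_9424, of the same name, had 2.41 and 3.09 FPKM on plates, 0.758 and 0.803 in TL2D, and 1.08 and 0.38 in TL3D. It stood near the floor on leaves and entered the tests only through the plates. It was 3.52-fold lower at day 2 (log2 −1.07 ± 0.17, adjusted p = 0.00939, and up to 0.0749 without a CK2D replicate) and 3.77-fold lower at day 3 (−1.14 ± 0.23, adjusted p = 0.00415). The put4-named proline permease PCI_3694 had the largest fitted change upward of that list at day 3, from 0.511 and 0.672 FPKM on plates to 13.6 and 14.1 in TL3D (3.23 ± 0.13, adjusted p = 1.86e-06). It entered the test only through the leaf libraries, so its groups had to differ. Its fold at day 2 rests on TL2D replicates of 23.0 and 6.99 FPKM. An isp4-named gene (PCI_0859), after a *Schizosaccharomyces pombe* oligopeptide transporter, had the largest fall at day 3 (−1.23 ± 0.16, adjusted p = 0.000513).

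Around these transporters, lists of related genes were matched by name, to be read beside the 24.8% of all tested genes called higher and 29.4% lower at day 2, and the 28.1% and 30.2% at day 3. The peptidase list holds genes named as peptidases or secreted proteases. Which of them act outside the cell, and so could free peptides and amino acids for uptake, was not tested. Of 48 tested, 9 rose and 19 fell at day 2 and 7 rose and 28 fell at day 3 against plates (18.8% and 39.6%, then 14.6% and 58.3%). Without either CK2D replicate 1 rose and 5 fell at day 2. At day 3, 4 rose and 21 fell without TL3D replicate 1 and 3 and 21 without TL3D replicate 2. The dipeptidase PCI_1286 rose most at day 3 (log2 1.93 ± 0.13, adjusted p = 1.76e-05). The gene that fell most, PCI_7364 (−2.94 ± 0.24, adjusted p = 6.21e-05), is named for a biosynthesis cluster and is no known protease. It is nevertheless counted in the shares of this list. The amino acid breakdown list, with 80 tested genes, also holds 13 named acetamidase rather than for an amino acid. Of the 80 genes 22 rose and 23 fell at day 2 and 27 rose and 25 fell at day 3. Their shares, 27.5% and 28.8% at day 2 and 33.8% and 31.3% at day 3, lie near those of all tested genes. The day 2 counts were 9 and 7 without CK2D replicate 1 and 8 and 6 without CK2D replicate 2. The L-amino-acid oxidase PCI_8349 had 3.37 and 7.16 FPKM on plates and 352 and 417 in TL3D (6.01 ± 0.26, adjusted p = 2.4e-06), and the leucine breakdown gene PCI_7722 fell by 2.18 (SE 0.10, adjusted p = 3.1e-06). Of other permeases for nitrogen compounds, 6 of which are the amino acid/polyamine transporters above, 16 of 38 tested rose and 7 fell at day 2, and 20 of 39 rose and 7 fell at day 3 (42.1% and 18.4%, then 51.3% and 17.9%). The day 2 counts dropped to 5 and 2 without either CK2D replicate and were 17 and 14 without TL2D replicate 1. In that list the choline transport gene PCI_7630 rose most (3.18 ± 0.10, adjusted p = 5.26e-07). The arginine permease gene PCI_1198 fell by 2.25 (SE 0.16, adjusted p = 2.91e-05), from 114 and 87.4 FPKM on plates to 23.1 and 17.7 in TL3D.

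Of 15 tested genes of nitrogen regulation and transporter sorting, among them arrestins, which tag permeases for removal from the membrane, 1 rose and 9 fell at day 2 and 2 rose and 4 fell at day 3. Lower calls made up 60.0% at day 2, against 29.4% of all tested genes, and 26.7% at day 3, near the 30.2% of all. Without either CK2D replicate limma called none of them at day 2, without TL2D replicate 2 it called 3 higher and 9 lower, and without CK2D replicate 1 or TL3D replicate 1, 2 fell at day 3. The arrestin gene PCI_0366 had the largest fall at day 3 (log2 −1.48 ± 0.10, adjusted p = 1.89e-05) and the bik4-named PCI_9029 the largest rise (1.12 ± 0.17, adjusted p = 0.00123). From day 2 to day 3, 6.77% of all 8222 tested genes were called higher and 3.3% lower. Calls higher and lower numbered 1 and 1 of 45 tested in the peptidase list. They were 1 and 2 of 79 in breakdown, and 2 and 2 of 37 in the other permeases. In the carriers named otherwise they were 1 and 0 of 32, and in regulation 0 and 1 of 15. Without either TL3D replicate none of these passed in limma, and without TL2D replicate 1 the counts were 10 and 5, 12 and 14, 13 and 3, 10 and 3, and 11 and 1 in the same order. Without TL2D replicate 2 they were 5 and 5, 4 and 15, 4 and 9, 3 and 4, and 1 and 2. Over all tested genes, calls in both directions also became more frequent without either TL2D replicate. A list for conidia, the other cell type a harvest of mycelium could hold, had 10 genes, all at 1 FPKM or more in each library. Its summed level was 20675 and 19422 FPKM on plates, 10155 and 7250.3 in TL2D, and 21392 and 24680 in TL3D. Its 5 hydrophobin genes had day 2 changes from −1.80 to 6.79 on the log2 scale, so the sum hides opposite movements. Of all tested genes, 24.8% were called higher and 29.4% lower at day 2, and 6.77% and 3.3% from day 2 to day 3. Against plates at day 3 these shares were 28.1% and 30.2%. Of the 10 listed genes 2 rose and 5 fell at day 2, and 5 rose and 2 fell from day 2 to day 3. At day 3 against plates 4 rose and 3 fell. Without either CK2D replicate 2 fell at day 2, and without either TL3D replicate none passed between the days. The part of conidiation in the transporters' values was not tested.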

How the data were processed

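RNA of mycelium was sequenced in 6 libraries. Per the file headers, the authors deposited FPKM for each replicate in 2 tables. The submitters' processing notes name Cufflinks. Which aligner, build and annotation were used is not given in the sources used here. Each fold change the authors deposited is a ratio of mean FPKM and the deposited log2 column its log2 (recomputed values matched within 0.001 for 100% of genes with both means above 0). The deposited FDR is an adjusted p-value whose test is not given in the sources used here. TL2D values were identical in both tables. Read depth could not be recovered from the low values.

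A gene was tested where 2 or more of a comparison's 4 libraries reached 1 FPKM. The fit used log2(FPKM + 1) and limma 3.58.1 in R 4.3.3 (eBayes with a trend, two-sided, 2 residual degrees of freedom), and p-values were Benjamini-Hochberg adjusted across the tested genes. The procedure was tested on simulated data. No gene number matched the 11657 genes of the RefSeq table, so no sequence or position is shown. Members, lists and tests were chosen with earlier results of these data known. Values in each library were to be given for the 10 called members with the largest change per comparison, the 5 most abundant, and the genes PCI_8661, PCI_9424 and PCI_6059. For each related list, the call with the greatest rise and that with the greatest fall were to be named, which is done here for TL3D against CK2D. PCI_3003 was described in full after its values were seen. Each of the 3 groups enters 2 of the 3 comparisons, so the comparisons are not independent. Alternatives left out each library in turn, blocked on the replicate number, lowered the pseudocount to 0.1, dropped the filter or raised it to 5 FPKM, scaled by upper quartile or median log ratio, fitted all 6 libraries together, or called genes by the authors' FDR, at an adjusted p under 0.01 or with a 2-fold limit.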

Additional observations from a re-analysis of the deposited data

How the results depend on the processing

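For TL2D against CK2D, members called higher numbered between 3 and 16 with 1 library left out and 3 at an adjusted p under 0.01, and members called lower between 0 and 9 with 1 library left out. The count of lower calls, 1 in the text, was 0 with the replicate block, at an adjusted p under 0.01 and with a 2-fold limit, 2 with no filter on low values, after median log ratio scaling and by the authors' deposited FDR, and 5 with all 6 libraries in one fit. For TL3D against TL2D, higher calls numbered between 0 and 15 with 1 library left out, 2 with the replicate block and after upper-quartile and median log ratio scaling, 3 with all 6 libraries, 5 by the authors' deposited FDR, and 0 at an adjusted p under 0.01 and with a 2-fold limit. Lower calls there numbered between 0 and 5 with 1 library left out, 0 with the replicate block and at an adjusted p under 0.01, and 2 after median log ratio scaling, with all 6 libraries and by the authors' deposited FDR. For TL3D against CK2D, higher calls numbered between 13 and 17 with 1 library left out, 12 with all 6 libraries and 8 with a 2-fold limit. Lower calls there numbered between 1 and 4 with 1 library left out, 1 with all 6 libraries and at an adjusted p under 0.01, and 0 with a 2-fold limit. The causes were not tested. No call of a single member changed sign in these alternatives, but changes without a call did. In TL3D against TL2D, 13 members changed sign without TL2D replicate 2. In TL2D against CK2D, 4 did so without TL2D replicate 1 and 4 without TL2D replicate 2.

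The replicate numbers pair nothing the labels name. Differences between replicates 1 and 2 correlated across 8407 genes at −0.08 between CK2D and TL2D, −0.25 between CK2D and TL3D, and 0.17 between TL2D and TL3D. With the replicate block, 6 members were higher at day 2, 16 at day 3 against plates. Between the days the calls of PCI_7844 and PCI_6059 were both lost with it, and the 2 higher calls there were other members.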

Other observations

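Some genes named for proline uptake and breakdown were singled out after their values were seen, so their calls are a description only. Of 7 tested proline-specific permeases 4 were called higher at day 2 and 5 at day 3 against plates, where 24.8% and 28.1% of all tested genes were. Among the 7, PCI_3694 entered the tests only through the leaf libraries, so its groups had to differ. The put4-named PCI_4070 had 12.6 and 20.1 FPKM on plates, 59.6 and 40.0 in TL2D, and 66.9 and 70.3 in TL3D (log2 2.04 ± 0.19 at day 3, adjusted p = 0.000109 in limma). The proline dehydrogenase gene PCI_8993, for the enzyme that starts proline breakdown, had 30.8 and 33.1 FPKM on plates, 95.1 and 152 in TL2D, and 114 and 109 in TL3D (1.77 ± 0.09 at day 3, adjusted p = 4.84e-06). The gene with the next number, PCI_8992, for the following step, had 91.2 and 94.2 FPKM on plates and 198 and 199 in TL3D (1.09 ± 0.08, adjusted p = 3.04e-05). Both breakdown genes were higher in TL2D replicate 2 than in replicate 1, the opposite order to most transporter genes.

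The fnx2-named vacuolar gene PCI_5093 had 14.1 and 12.2 FPKM on plates, 3.31 and 2.02 in TL2D, and 13.2 and 14.5 in TL3D. It fell at day 2 (log2 −1.97 ± 0.22, adjusted p = 0.00403, and 0.051 without CK2D replicate 1) and rose from day 2 to day 3 (2.04 ± 0.21, adjusted p = 0.0173, up to 0.284 without a TL3D replicate). At day 3 it had log2 0.06 ± 0.12 against plates (adjusted p = 0.663).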
